A study of Rattus norvegicus and Ovis aries with 113 samples.

Results

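The synaptotagmins are membrane proteins of secretory vesicles. The family members described here are SYT1, SYT2, SYT3, SYT4, SYT5, SYT6, SYT7, SYT9, SYT11 and SYT13. They were taken as 10 listed genes by upper-cased symbol, and all 10 were found in each species' count table, among 31304 sheep and 38675 rat entries. These are 10 of the 16 numbered SYT symbols in the sheep table and of the 17 in the rat table. The family was chosen by its sperm and brain CPM, with the loss of SYT4 and SYT13 in sperm already known, so sperm levels are given below as a description, without a test.

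A synaptotagmin has a short part inside the vesicle, a single pass through the vesicle membrane and a pair of domains facing the cytosol. In most members these domains bind calcium and membrane lipid, and they act on the SNARE proteins that fuse vesicles with the plasma membrane. SYT1, SYT2 and SYT9 are the fast sensors, which trigger transmitter release within moments of calcium entry at a synapse. SYT3, SYT5, SYT6 and SYT7 work in slower steps, such as asynchronous release, vesicle refilling and the traffic of other organelles. SYT4, SYT11 and SYT13 lack some or all of the residues that hold calcium, and act in peptide-containing vesicles and in membrane uptake.

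Brain and reproductive samples were collected from untreated animals. The sheep were 5 post-pubertal males, numbered 687, 688, 690, 694 and 699, each giving 10 dissected brain regions and a sperm sample, 55 libraries in all. The rats were Sprague Dawley animals. Whole brain and a sample labelled sperm, which the design text calls seminal fluid, came from 15 post-pubertal males, and whole brain and ovary came from 14 females, whose age is not given in the sources used here. The samples are bulk tissue, in which fewer cells of a type and less RNA per cell cannot be told apart.

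Library totals, in units of 1000000 counts, were 46.7 to 72.4 for sheep brain and 13.7 to 65.1 for sheep sperm. They were 38.2 to 119 for rat brain, 50.5 to 60.3 for ovary and 13.7 to 65.1 for rat sperm. In 2 rat brain libraries, of female 1 and male 4, the ribosomal RNA entry Rn45s took 29.9% and 28.4% of counts. Levels in brain and ovary are therefore given as CPM, the counts of a gene per 1000000 counts of the library, scaled by the trimmed mean of M values (TMM), which compares libraries through the bulk of their genes. Levels in sperm are raw counts and CPM of the plain library total. Gene length was not used, so a level is compared between samples for 1 gene, never between genes.

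Marker lists were set beside the region labels, in CPM of the plain total. In 4 sheep brain libraries some lists or marker genes stood apart from the other libraries of the label. These were motor cortex of sheep 687, entorhinal cortex of sheep 687 and of sheep 694, and pons of sheep 699. The motor cortex library of sheep 687 was highest of its region in the cerebellar granule list, at 31.1 CPM against 15.8 to 16.8. It was also highest in the astrocyte list, at 7114 CPM against 3131 to 5012. The entorhinal library of sheep 694 was highest in the neuron list, at 3115 CPM against 2140 to 2485. In the granule and astrocyte lists it lay within the range of its region (the lists are named below). GABRA6, a marker of cerebellar granule cells, reached 11.3 CPM in the entorhinal cortex library of sheep 687 and at most 0.321 CPM in the rest of that region. The neuronal gene RBFOX3 was lowest in the pons library of sheep 699, at 6.05 CPM, against 14.4 to 54.3 CPM in the other 4. The pons library of sheep 687 also differed from the rest of its region. The hindbrain genes HOXB3, HOXB5, SLC6A5 and SLC6A2 summed to 2.19 CPM in it and to 1.29 CPM in that of sheep 699, against 21.0 to 46.6 CPM in the other 3 pons libraries. The cortical projection genes TBR1, SLC17A7, NEUROD6 and FEZF2 summed to 99.2 CPM in sheep 687 and to 4.78 to 29.9 CPM in the other 4 pons libraries. These 4-gene sums were chosen after their values were seen. The region results were recomputed without the 4 libraries, and without these and the pons library of sheep 687, 5 in all. Changed calls of members are given beside the result.

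The upstream sequences of 2 rat members, Syt4 and Syt9, are shown because these genes lay at opposite ends of the ovary comparison below among the members with a promoter entry, Syt4 with the largest fall and Syt9 with the smallest. They are from RefSeq on GRCr8, 5′ to 3′ on the gene's strand, and cover those of the 250 bases before the start site that lie outside the annotated gene, all 250 for Syt4 and 111 for Syt9. Capitals mark CpG dinucleotides. Syt4 is on the minus strand at chr18:23320864-23321113, and Syt9 on the plus strand at chr1:170687555-170687665.
Syt4: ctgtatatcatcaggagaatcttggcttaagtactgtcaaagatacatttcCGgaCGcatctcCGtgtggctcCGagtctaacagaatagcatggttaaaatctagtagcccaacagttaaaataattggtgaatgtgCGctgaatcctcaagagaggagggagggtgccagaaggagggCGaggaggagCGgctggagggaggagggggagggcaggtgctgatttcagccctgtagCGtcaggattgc
Syt9: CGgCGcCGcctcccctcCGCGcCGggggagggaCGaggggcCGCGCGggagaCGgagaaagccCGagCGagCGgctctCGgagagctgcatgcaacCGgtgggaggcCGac

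Promoter entries matched 7 of the 10 members (Syt1, Syt2, Syt3, Syt4, Syt6, Syt9 and Syt11; Syt5, Syt7 and Syt13 had none). Over the 250 bases upstream of the start site, the Syt9 entry was 80.8% G and C with 41 CpG, a GC content above that of 99.2% of 33469 rat promoters. Of these 250 bases, 139 lie inside the annotated gene, and the 111 printed above hold 17 of the CpG. The windows of Syt2, Syt3, Syt6 and Syt11 lie wholly inside the annotated gene, and that of Syt1 all but 3 bases. The Syt4 entry was 51.2% G and C with 8 CpG, which is the median GC content of all promoters. The GC box, searched as GGGCGG on both strands, was found in 5 of the 7 entries and in 30.5% of all promoters. Syt1 had 3 matches, Syt3, Syt6, Syt9 and Syt11 had 1 each, and Syt2 and Syt4 had none. The cyclic AMP response element TGACGTCA, the TATA box TATAAA and the core of the RE1 element, also searched on both strands, had no match in these 7 windows. They were found in 1.59%, 12.9% and 0.0269% of all promoters.

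The first comparison asked which synaptotagmins differ between regions of the sheep brain. All 10 members differed between the 10 regions by the F test of edgeR's quasi-likelihood fit, at a Benjamini-Hochberg adjusted p between 3.83e-13 for SYT9 and 0.0159 for SYT3. That test called 76.7% of the 21147 genes tested, so the count of 10 of 10 is read against a background in which most genes differed. Without sheep 694, SYT3 had an adjusted p above the threshold and the count was 9. The members differed more in how far they ranged. The mean of the highest region was 91.5 times that of the lowest for SYT6, 44.5 times for SYT9 and 10.3 times for SYT7. For SYT4, SYT5, SYT1 and SYT2 it was 8.74, 7.00, 6.90 and 5.57 times. It was 2.45 times for SYT13, 2.08 times for SYT3 and 1.93 times for SYT11.

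**Figure D1:**
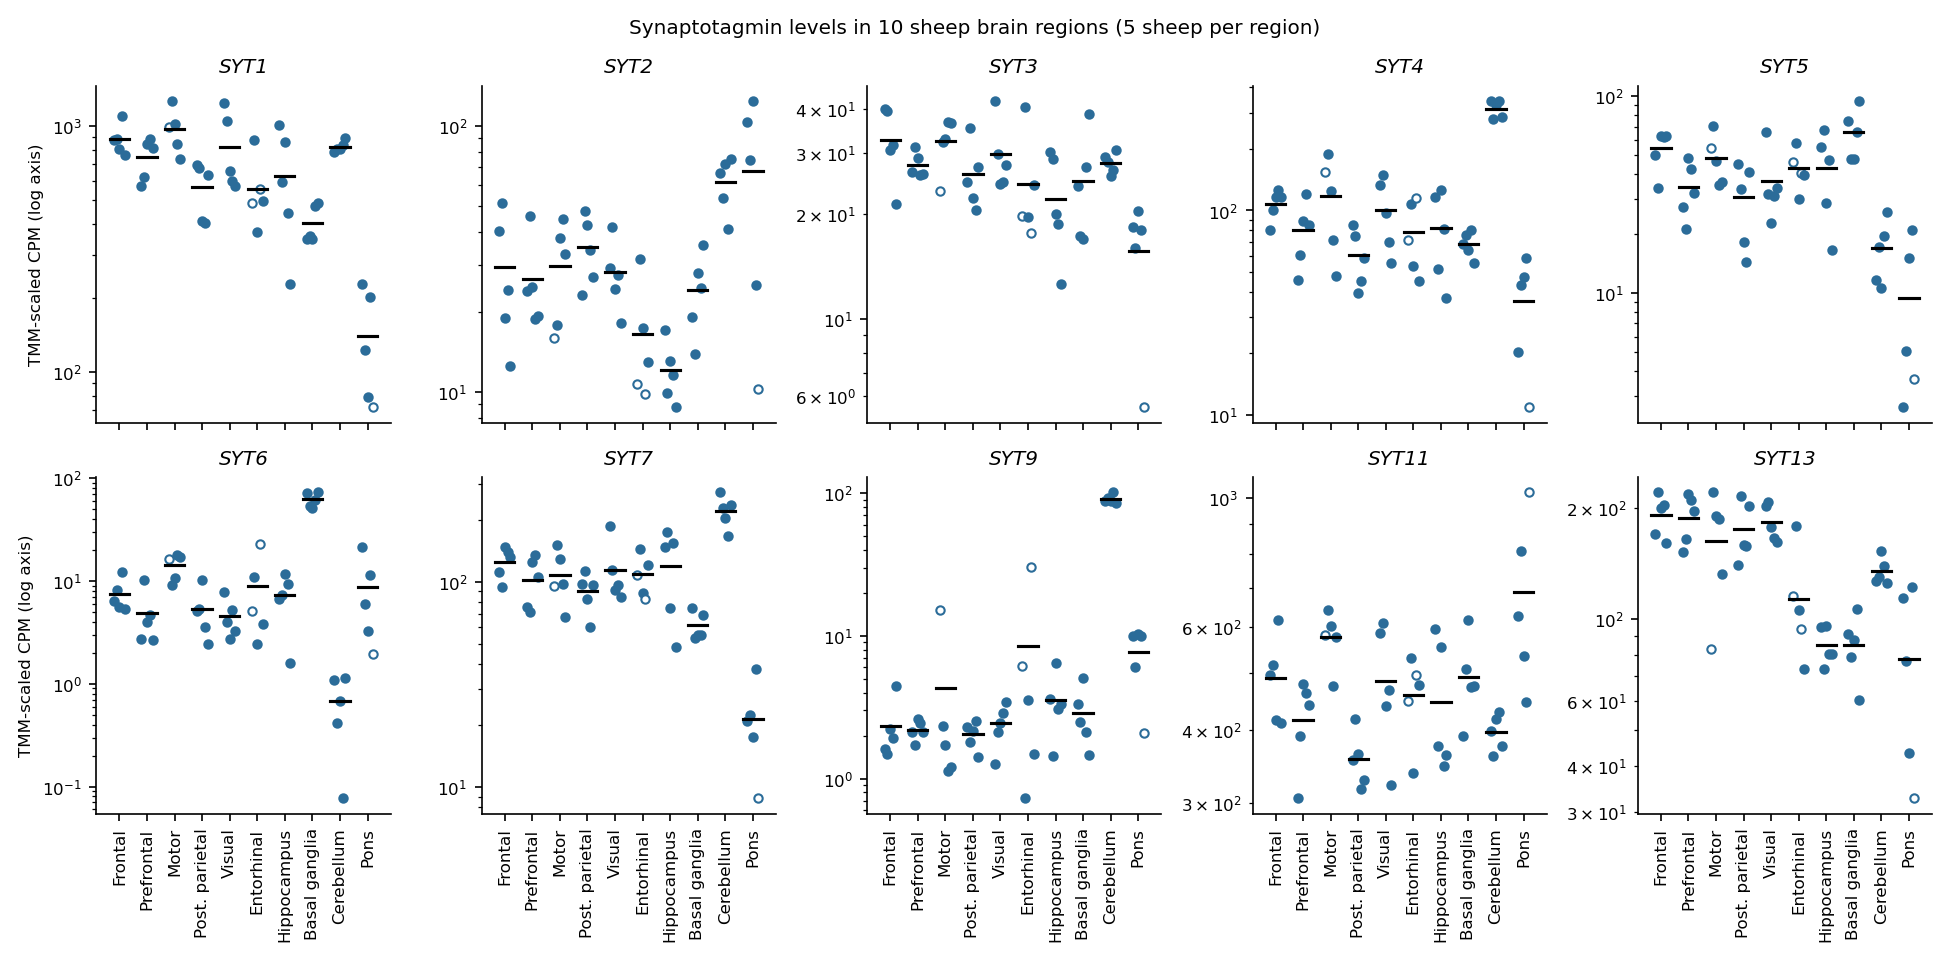
TMM-scaled CPM (log axis, its range set for each gene) of the 10 members in each of 10 sheep brain regions, 5 libraries per region; bars are region means and open circles the 4 libraries whose markers stood apart. SYT9 and SYT4 in cerebellum and SYT6 in basal ganglia lie above every library of the other regions.

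In the same fit, each region was then compared with the average of the remaining 9. Calls required a log2 fold change of 1 or more in size together with an adjusted p under 0.05. Of 100 pairs of member and region, 14 were called, in cerebellum, pons, basal ganglia and hippocampus. No member was called in entorhinal cortex or the 5 other cortical areas, where the share of all genes called was 2.24% in entorhinal, 2.77% in frontal, 1.64% in motor, 2.66% in posterior parietal, 2.46% in prefrontal and 2.12% in visual cortex. In each of these 6 regions, 2 to 6 members had an unadjusted p below 0.05. By the edgeR adjusted p alone, 2 members passed in frontal cortex and 1 each in motor, posterior parietal and prefrontal cortex. Their fold was below the threshold. SYT3, SYT11 and SYT13 were called in no region.

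**Figure D2:**
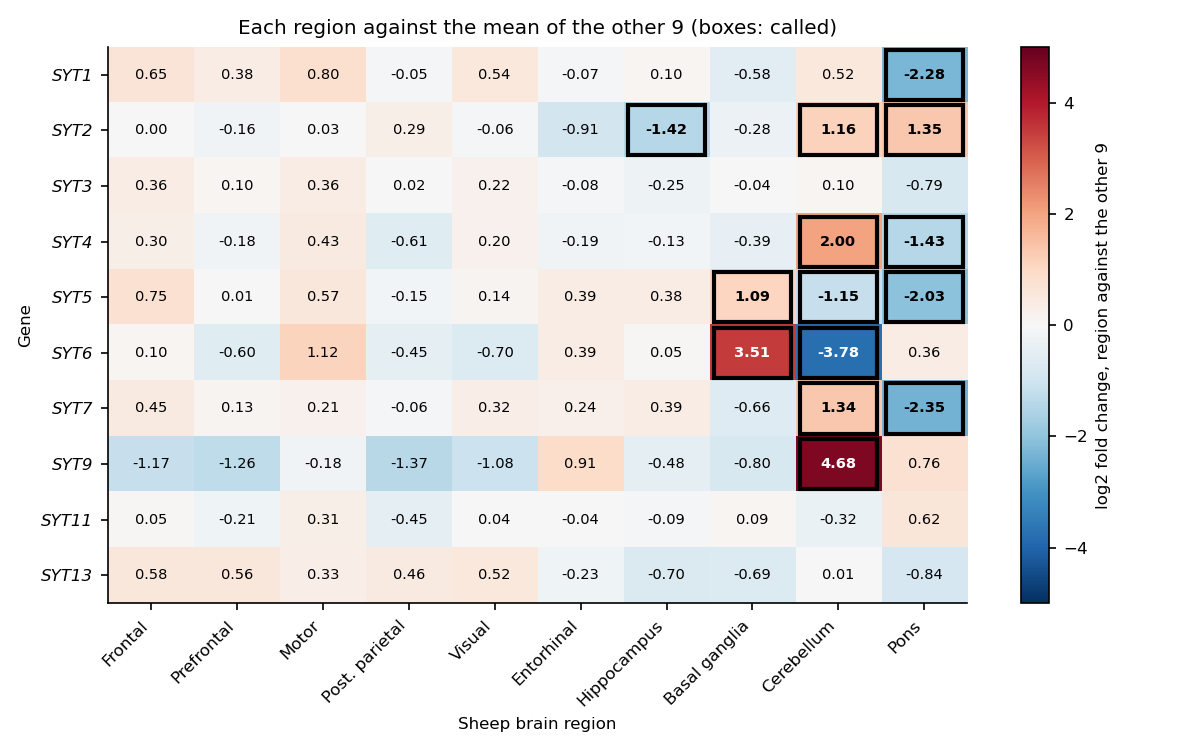
Log2 fold change of each member (rows) in each sheep brain region (columns) against the mean of the other 9 regions; red is higher, blue is lower, and boxes mark the 14 called pairs. The boxes fall in hippocampus, basal ganglia, cerebellum and pons.

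Among the fast sensors, SYT9 was a cerebellar transcript. Its level in cerebellum was 87.6, 91.7, 88.3, 101 and 84.9 CPM in sheep 687, 688, 690, 694 and 699, a mean of 90.7 ± 6.28 (SD, n = 5). These values lay close together and all were above the highest library elsewhere, 30.4 CPM. The means of the other 9 regions ran from 2.04 CPM in posterior parietal cortex to 8.45 CPM in entorhinal cortex. Without the 4 libraries whose markers stood apart, the entorhinal mean was 1.92 CPM (n = 3), the motor cortex mean 1.60 CPM (n = 4) and the pons mean 9.09 CPM (n = 4), so that motor cortex was lowest and pons highest of the 9. SYT9 was higher in cerebellum by 4.68 ± 0.32 (SE) on the log2 scale, at an edgeR adjusted p of 6.62e-17. It was 1 of 6 members called in cerebellum, 4 higher and 2 lower, where 28.8% of all genes were called, 9.35% higher and 19.5% lower.

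Outside cerebellum the 2 highest SYT9 libraries were among those whose markers stood apart. Leaving them out was chosen after seeing the data, and it takes out the highest SYT9 value of entorhinal and of motor cortex. The SYT9 calls made without them depend on that choice. The entorhinal cortex library of sheep 694 was at 30.4 CPM and the other 4 of that region were at 0.725 to 6.09 CPM. The motor cortex library of sheep 687 was at 15.1 CPM against 1.14 to 2.34 CPM in the other 4. The summed CPM of the cerebellar granule list (GABRA6, PAX6, ZIC1, NEUROD1 and CBLN3) was 34.9 and 31.1 in these 2 libraries and 2096 to 2631 in cerebellum, and GABRA6 itself was at 0 and 0.0189 CPM in them. The part of tissue composition in these 2 values was not tested. Without the 4 libraries, SYT9 was also called higher in pons (log2 fold change 1.39, edgeR adjusted p = 9.21e-06), and lower in motor cortex (-1.39, adjusted p = 0.00536) and in posterior parietal cortex (adjusted p = 0.0149). With all libraries, the pons value was 0.76, adjusted p = 0.13. Without the 5 libraries, SYT9 was called in pons (1.35, adjusted p = 1.64e-04) and motor cortex (-1.39, adjusted p = 0.00614), and not in posterior parietal cortex. In the pons, SYT9 was at 9.91 to 10.3 CPM in sheep 687, 690 and 694, at 6.09 CPM in 688 and at 2.07 CPM in 699.

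SYT1, the main sensor of fast release in the forebrain, had its lowest mean in pons. It stood at 229, 123, 79.4, 201 and 71.8 CPM there in sheep 687, 688, 690, 694 and 699, a mean of 141 ± 71.1 (SD, n = 5). The next mean was 403 CPM in basal ganglia, and the highest was 970 ± 198 (SD, n = 5) in motor cortex. All pons libraries were below all libraries of the other regions except the hippocampus library of sheep 699, at 228 CPM, which lay just under the highest pons library. SYT1 was lower in pons, with a log2 fold change of -2.28 ± 0.25 (SE) at an adjusted p of 5.31e-10 in edgeR. Between the other 9 regions, ordered by mean, each neighbouring pair had overlapping ranges. Hippocampus was the most spread, from 228 to 1010 CPM, with sheep 687 and 690 high and 699 low.

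SYT2, the fast sensor best known from brainstem, cerebellum and the neuromuscular junction, had its highest mean in pons. The pons libraries read 104, 74.6, 123, 25.3 and 10.3 CPM in sheep 687, 688, 690, 694 and 699. Sheep 687, 688 and 690 were thus high, 694 was within the range of the cortical areas and 699 was below the lowest frontal cortex library, at 12.5 CPM. Cerebellum was more even, at 41.1 to 74.8 CPM with a mean of 61.5 ± 14.0 (SD, n = 5). Hippocampus was lowest, at 12.1 ± 3.22 CPM (SD, n = 5), and its range overlapped that of entorhinal cortex, at 16.5 ± 8.89 CPM (SD, n = 5).

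SYT2 was called in 3 regions by edgeR's quasi-likelihood test. Its log2 fold change was 1.35 ± 0.27 (SE) in pons (adjusted p = 5.18e-05), 1.16 ± 0.27 in cerebellum (adjusted p = 3.22e-04) and -1.42 ± 0.35 in hippocampus (adjusted p = 0.00496). In hippocampus it was the 1 member called, and 4.62% of all genes were called there. Leaving out sheep 688 added a lower call in entorhinal cortex, at -1.21 with an adjusted p of 0.0395.

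The ratio of SYT2 to SYT1 counts within a library does not depend on its total and was used to set these 2 sensors beside each other. As the genes differ in length, only the change of the ratio between regions is read. The log2 ratio was -1.14, -0.72, 0.64, -2.99 and -2.80 in the pons libraries of sheep 687, 688, 690, 694 and 699, with a mean of -1.40 ± 1.51 (SD, n = 5). Every pons library was above every library of the other 9 regions, whose highest value was -3.28, in posterior parietal cortex. The other means ran from -5.55 ± 0.56 in hippocampus to -3.78 ± 0.35 in cerebellum (SD, n = 5 each). The pons mean exceeded the mean of the other 9 regions by 3.32 on the log2 scale.

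**Figure D3:**
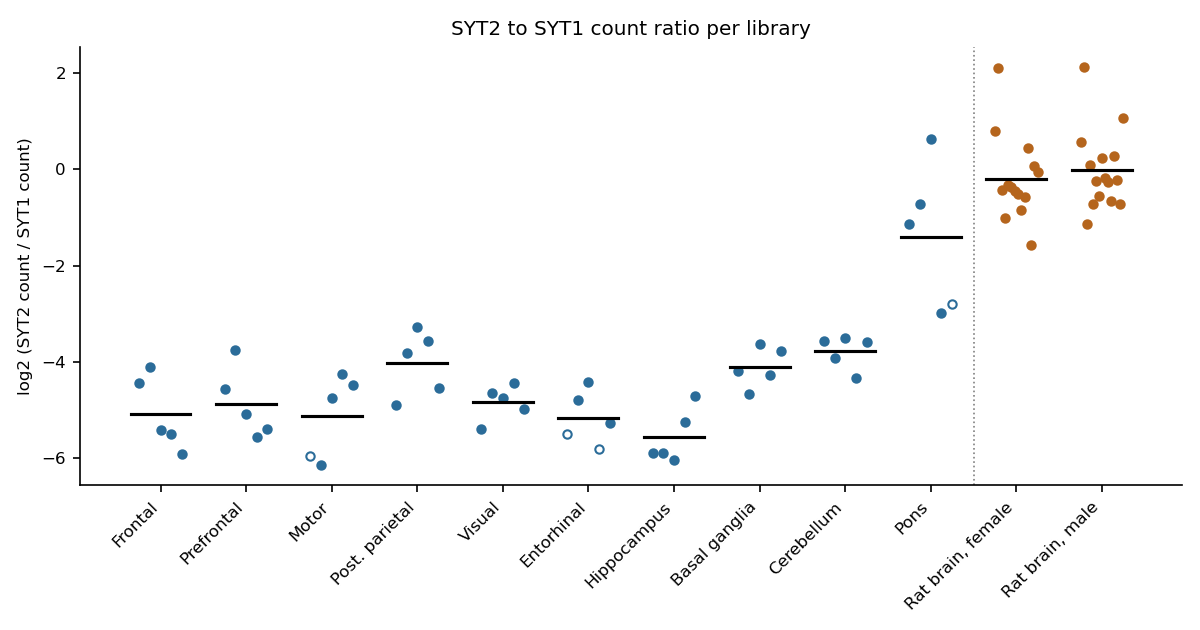
Log2 ratio of SYT2 to SYT1 counts in each library; blue points are sheep regions (n = 5 each, open circles the 4 libraries whose markers stood apart), brown points are rat whole brains (14 female, 15 male), and bars are means. The pons libraries lie above all other sheep libraries.

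In rat whole brain the log2 ratio of Syt2 to Syt1 averaged -0.19 ± 0.88 in 14 females and -0.02 ± 0.82 in 15 males (SD). Sheep and rat libraries were prepared with different kits and the genes differ in length between species, so the ratios of the species are not compared. Of the 10 members Syt1 varied most between rat brains. It ranged from 32.4 to 392 CPM over 29 brains with a coefficient of variation of 43.9%. The other 9 members had 8.85% to 24.7%.

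SYT7, the slow sensor of asynchronous release and vesicle refilling, was highest in cerebellum and lowest in pons. Its cerebellar libraries were at 272, 228, 204, 166 and 235 CPM in sheep 687, 688, 690, 694 and 699, and its pons libraries at 21.1, 22.5, 17.6, 37.6 and 8.82 CPM. The pons libraries were all below the lowest library elsewhere, 48.0 CPM, while the cerebellar range was overlapped by libraries of hippocampus and visual cortex, the highest at 187 CPM. SYT7 differed by a log2 value of 1.34 ± 0.18 (SE) in cerebellum (edgeR adjusted p = 3.27e-08) and -2.35 ± 0.26 in pons (edgeR adjusted p = 3.18e-10).

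SYT6, which is also known for its part in the acrosome reaction of sperm, had the widest range of the family. It was at 72.2, 54.2, 51.2, 61.4 and 73.1 CPM in the basal ganglia of sheep 687, 688, 690, 694 and 699. These 5 libraries were all above the highest library elsewhere, 22.7 CPM in the entorhinal cortex of sheep 694. In cerebellum the same sheep gave 68, 27, 45, 5 and 72 counts, or 0.0765 to 1.15 CPM, and no library of another region was as low. Against the other regions SYT6 differed by a log2 value of 3.51 ± 0.30 (SE) in basal ganglia (edgeR adjusted p = 3.32e-13) and -3.78 ± 0.55 in cerebellum (edgeR adjusted p = 1.30e-07). In basal ganglia 10.3% of all genes were called and 2 of the 10 members, SYT6 and SYT5. In motor cortex the SYT6 value was 1.12 with an adjusted p of 0.064. With the animal as a block it was 1.19 with an adjusted p of 0.0386, the only call of a member that the block changed. Without the 5 libraries it was 1.19, with an edgeR adjusted p of 0.0345.

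SYT5, found on dense-core and synaptic vesicles, had its highest mean in basal ganglia and its lowest in pons. It stood at 74.6, 47.9, 48.0, 65.7 and 94.1 CPM in basal ganglia and at 2.62, 5.09, 15.1, 20.8 and 3.66 CPM in pons, in sheep 687, 688, 690, 694 and 699. The pons libraries of sheep 690 and 694 overlapped the cerebellar range of 10.6 to 25.7 CPM. SYT5 in pons had a log2 fold change of -2.03 ± 0.35 (SE) at an adjusted p of 4.96e-06 in edgeR. The calls in basal ganglia (1.09 ± 0.26, edgeR adjusted p = 0.00123) and cerebellum (-1.15 ± 0.32, edgeR adjusted p = 0.00222) lay near the fold threshold. They fell to 0.87 without sheep 699 and to -0.998 without sheep 687, under the fold threshold, with adjusted p of 0.0281 and 0.0137.

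SYT3, a sensor with high calcium affinity that also acts in the uptake of glutamate receptors, varied little. Its means ran from 15.7 ± 5.86 CPM in pons to 32.6 ± 7.65 CPM in frontal cortex (SD, n = 5 each), and all neighbouring regions in that order overlapped. In pons it changed by -0.79 ± 0.20 (SE) on the log2 scale, at an edgeR adjusted p of 9.24e-04, which is below the fold needed for a call. The pons library of sheep 699, at 5.57 CPM, was the lowest of all 50, and the other 4 pons libraries were at 16.0 to 20.4 CPM.

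Among the members without full calcium binding, SYT4, a protein of dense-core vesicles that carry peptides and growth factors, was the cerebellar one. Its cerebellar libraries were at 342, 281, 327, 342 and 285 CPM in sheep 687, 688, 690, 694 and 699. All 5 lay above the highest library elsewhere, 189 CPM in motor cortex. In pons SYT4 was at 20.4, 43.1, 47.5, 58.5 and 10.9 CPM in the same order of sheep, which overlapped posterior parietal cortex. SYT4 had a log2 fold change of 2.00 ± 0.22 (SE) in cerebellum (edgeR adjusted p = 1.05e-10) and -1.43 ± 0.29 in pons (edgeR adjusted p = 8.00e-05). Without the 5 libraries, which leaves 3 in pons, the pons value was -0.94 with an edgeR adjusted p of 0.0199, under the fold threshold.

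SYT11, which restrains membrane uptake and is the SYT4 relative with the flattest profile here, had its highest mean in pons. The pons libraries read 628, 812, 535, 446 and 1022 CPM in sheep 687, 688, 690, 694 and 699, around a mean of 688 ± 230 (SD, n = 5). Sheep 699, the library lowest in RBFOX3, was the highest. The log2 fold change of 0.62 ± 0.13 (SE) had an edgeR adjusted p of 6.01e-05 and did not reach the fold threshold. The lowest mean was 356 ± 39.4 CPM (SD, n = 5) in posterior parietal cortex.

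SYT13, an atypical member that does not bind calcium, had its 4 highest means in cortical areas. Its mean was 191 ± 24.8 CPM in frontal cortex, 188 ± 28.8 in prefrontal, 183 ± 20.8 in visual and 175 ± 32.5 in posterior parietal cortex (SD, n = 5 each). The means of hippocampus, basal ganglia and pons were 85.1, 85.0 and 77.8 CPM. In motor cortex, sheep 687 was at 83.0 CPM and the other 4 at 133 to 220 CPM. The log2 fold change in pons was -0.84 ± 0.19 (SE), edgeR adjusted p = 2.51e-04, short of the fold threshold. It passed that threshold without sheep 687 (-1.04) or without sheep 694 (-1.05).

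In pons 5 of the 10 members were called, 4 lower (SYT1, SYT4, SYT5 and SYT7) and 1 higher (SYT2), where 18.7% of all genes were called, 9.02% lower and 9.66% higher. The median log2 fold change of the members was -0.81, against 0.03 over all genes tested. Marker lists were read beside these values. The astrocyte list (GFAP, AQP4, ALDH1L1, SLC1A2 and GJA1) summed to 14384 to 19740 CPM in pons and to at most 11972 CPM elsewhere. The oligodendrocyte genes MBP, MOG, MAG and MOBP summed to 39606, 33001, 23416, 13963 and 57559 CPM in the pons of sheep 687, 688, 690, 694 and 699, and to 843 to 22317 CPM elsewhere. Sheep 699, highest in SYT11, was highest in these 4 genes too. The neuron list (RBFOX3, MAP2, NEFL, SYN1 and STMN2) summed to 600 to 4342 CPM in pons, with sheep 699 lowest and 690 highest, and to 1388 to 3215 CPM elsewhere. All members of both lists were at a mean of 1 CPM or more in every region. The part of these cell types in the pons values was not tested. Without the 5 libraries, 5 members were called in pons, SYT2 and SYT9 higher and SYT1, SYT5 and SYT7 lower.

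The partners of synaptotagmins in release were followed as a list of 18 genes, and 13 of them were called lower in pons and none higher. Their median log2 fold change was -1.34. The largest were CPLX3, a complexin, at -4.15 ± 0.58 (SE, edgeR adjusted p = 9.82e-08), and STX1A, a syntaxin of the fusion complex, at -3.65 ± 0.34 (SE, edgeR adjusted p = 6.51e-12). In cerebellum 4 of the 18 were called higher and 3 lower. DOC2B, another calcium-binding release protein, was at 3.13 and SNAP25, a fusion protein of the plasma membrane, at 1.14, while STX1A was at -6.52 and DOC2A at -2.33. In basal ganglia 3 were called higher and 3 lower, led by DOC2B at 2.73, the vesicle protein SV2C at 1.42, DOC2A at -2.56 and CPLX3 at -2.41. In hippocampus 3 were called lower, with SV2C at -1.39 and RPH3A, rabphilin, at -1.21.

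Other relatives were measured beside the members. Of 7 further synaptotagmins, 5 passed the low-count filter in sheep brain, and all 5 were called lower in pons, led by SYT16 at -2.35 and SYT17 at -1.68. In cerebellum SYT17 was at -2.79 and SYT16 at -1.29, and SYT12 was higher at 1.64. SYT17 was at -2.46 in basal ganglia. Of the 3 extended synaptotagmins, which tether the endoplasmic reticulum to the plasma membrane, ESYT1 was called higher in pons at 1.78 ± 0.19 (SE, edgeR adjusted p = 1.04e-10) and ESYT3 lower at -1.06. ESYT3 was also lower in cerebellum at -1.92 and in basal ganglia at -1.78. Of the 5 synaptotagmin-like genes, whose proteins bind Rab27, SYTL3 was higher (1.43) and SYTL5 lower (-2.13) in pons. In cerebellum SYTL2 was higher at 1.12, and SYTL5 and SYTL3 were lower at -1.95 and -1.37.

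Regional profiles of the members were compared over the 10 region means of log2(CPM + 1), which share the same 50 libraries. SYT1 was most like SYT3 (Pearson r = 0.95) and SYT7 (r = 0.92), and SYT4 was most like SYT7 (r = 0.87). SYT2 and SYT5 ran most opposite, at r = -0.68. Among 17303 other named genes, those with the profile closest to SYT9 were EN2 (r = 0.995), LHX1 and PPP4R3A. Each of these, like SYT9, had its highest mean in cerebellum, so these correlations rest largely on that region. EN2 is a homeobox gene of the midbrain and hindbrain and LHX1 a LIM homeobox gene. For SYT1 they were SVOP, a synaptic vesicle protein, DNAJC5, the vesicle chaperone known as cysteine string protein, and FAM234B. For SYT6 they were CTPS1, DIRAS3 and GRAMD2A, and for SYT5 CRYM, MGRN1 and NLGN1, the postsynaptic adhesion gene neuroligin. For SYT4 they were IRGQ, MATR3 and DISP2, for SYT7 WNK2, SPTAN1 and PPP4R4, and for SYT3 NDRG4, LMTK2 and CEND1. For SYT13 they included R3HDM4 and the neuronal kinase gene BRSK2. The closest profiles were looser for SYT2 (AIFM1, GMPR2 and STX16, r of 0.95 to 0.92) and SYT11 (HSDL1, CEPT1 and ANKRD28, r of 0.95 to 0.94).

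The second comparison set rat ovary against the brain of the same 14 females. Of the 10 members, 9 were called, all lower in ovary, where 56.9% of 20801 genes were called and 29.2% were called lower. The median log2 fold change was -5.52 for the members and 0.02 for all genes. Brain CPM was among the values by which the family was chosen, and that choice favours lower calls in another tissue. The count and median are therefore a description of the members, not support for a family trait. For the 9 called members, all 14 ovary libraries were below all 14 female brain libraries.

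**Figure D4:**
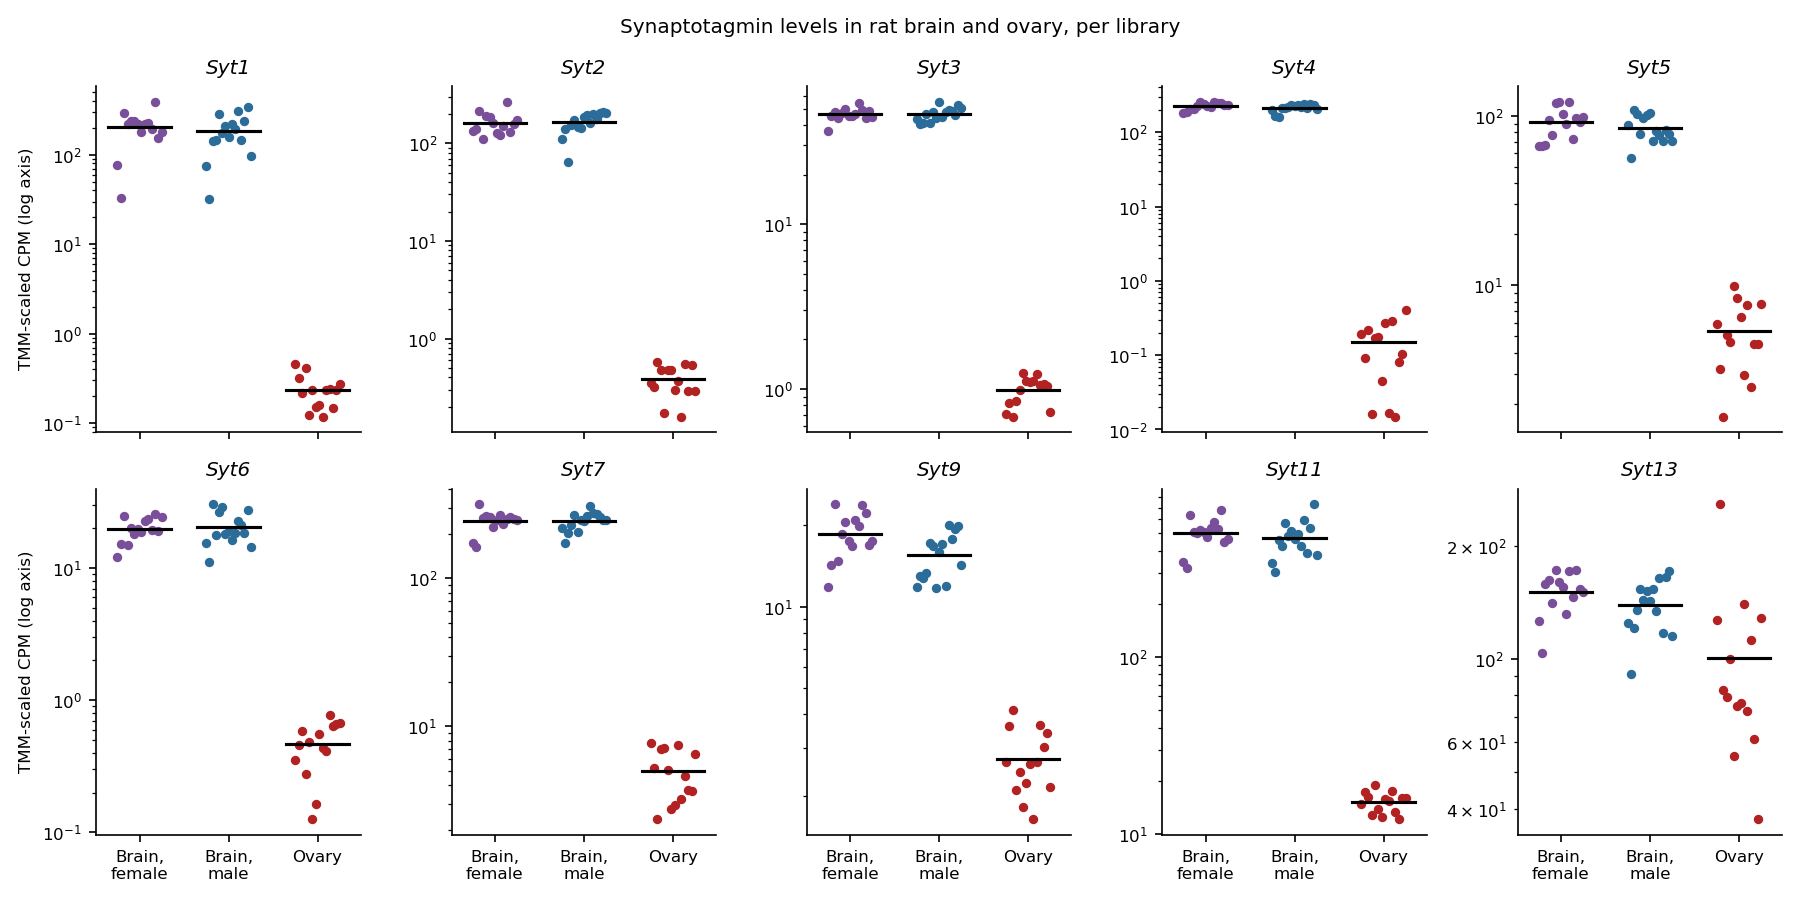
TMM-scaled CPM (log axis, its range set for each gene) of the 10 members in rat brain of 14 females and 15 males and in 14 ovaries; each point is a library and bars are means. Ovary lies below brain for 9 members, while the Syt13 ranges overlap.

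The deepest fall was that of Syt4 (GRCr8 chr18:23311454-23320863), from a brain median of 229 CPM (179 to 257) to an ovary median of 0.137 CPM (0.0149 to 0.402). Its log2 fold change was -10.60 ± 0.26 (SE), edgeR adjusted p = 6.41e-26. Syt1 (chr7:45699649-46244460) followed, from a brain median of 219 CPM (32.6 to 392) to 0.236 CPM (0.118 to 0.464), at -9.78 ± 0.32 (SE, edgeR adjusted p = 1.25e-22). Syt2 (chr13:48639634-48749814) went from a brain median of 156 CPM (111 to 267) to 0.361 CPM (0.158 to 0.581), at -8.76 ± 0.19 (SE, edgeR adjusted p = 3.25e-27). Syt1, Syt2 and Syt4 were thus below 1 CPM in all 14 ovaries.

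A middle group fell less. Syt7 (chr1:216456148-216518718), Syt3 (chr1:104017341-104032046), Syt6 (chr2:193781051-193840741), Syt11 (chr2:176503845-176530354) and Syt5 (chr1:78320034-78327750) had log2 fold changes of -5.66, -5.59, -5.44, -5.09 and -4.14. Syt11 kept an ovary mean of 15.2 ± 2.04 CPM (SD, n = 14) against 504 ± 96.2 in brain. Syt5 kept 5.37 ± 2.42 CPM (SD, n = 14) and Syt7 4.96 ± 1.92 CPM (SD, n = 14), while Syt3 and Syt6 were at or below 0.984 CPM on average. Syt5 and Syt9 have been named in exchange of each other: the annotation lists SytIX as a synonym of Syt5 and Sytv as a synonym of Syt9. Syt5 overlaps the entry LOC108349515, at a mean of 1.77 CPM, and the strand setting of the counting is not given in the sources used here.

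The smallest called fall was that of Syt9 (chr1:170687666-170868146), from a brain median of 18.0 CPM (11.8 to 23.9) to an ovary median of 2.63 CPM (1.64 to 4.16). Its log2 fold change was -2.80 ± 0.13 (SE), edgeR adjusted p = 9.78e-19. Syt9 is the entry with the GC-rich upstream sequence printed above, and Syt4, with the deepest fall, the other.

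Syt13 (chr3:99332554-99372960) was the member kept in ovary. Its ovary libraries ran from 37.5 to 258 CPM with a median of 80.8 CPM, and its female brain libraries from 104 to 173 CPM with a median of 154 CPM. Of the 14 ovaries, 9 were below every brain and 1, rat 2, was above every brain. The log2 fold change of -0.62 ± 0.18 (SE) had an edgeR adjusted p of 0.0024 and did not reach the fold threshold, with a range of -0.78 to -0.56 over the alternative settings.

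The level of Syt13 varied between ovaries with some steroid-making markers. Over the 14 ovaries, which share tissue and preparation, its Spearman correlation was 0.76 with Hsd3b1, 0.71 with Cyp19a1 and 0.67 with Cyp17a1, enzymes of steroid synthesis. It was 0.49 with Star and 0.44 with Cyp11a1 and with Lhcgr. Of the other granulosa genes, Foxl2 gave 0.45, Amh 0.38, Fshr 0.03 and Inha -0.10. The oocyte genes gave 0.27 for Zp3, 0.20 for Zp2, 0.09 for Bmp15, 0.05 for Gdf9 and 0.02 for Dazl. The ovary of rat 2, highest in Syt13, was at 2117 CPM for Star and 77.6 CPM for Cyp19a1, against ovary means of 1020 and 21.2 CPM. The same ovary was highest in the neuronal gene Rbfox3, at 30.5 CPM against 1.93 to 15.1 CPM in the other 13, and in the neuron list, at a summed 95.8 CPM of the plain total against 41.9 to 68.9 CPM. Among nerve markers, ovary means were 0.0538 CPM for Th, 0.284 CPM for Dbh and 0.404 CPM for Sox10. Prph averaged 15.3 CPM and Uchl1 28.9 CPM, with Spearman correlations of -0.59 and 0.29. Correlations of this size were not particular to Syt13. Syt3 was at -0.83 with Cyp17a1, Syt5 at -0.85 with Foxl2 and Syt9 at 0.82 with Fshr. These are descriptions of 14 libraries, and the part of cell composition was not tested.

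Beside the members in ovary, all 18 release partners were called lower, led by SNAP25 at -11.34 and CPLX3 at -10.44, with a median of -5.94. Of the 6 other synaptotagmins that passed the filter, 5 were called lower, led by SYT10 and SYT17, both at -5.79 and -5.78. ESYT1 and SYTL4 were called higher in ovary, at 2.19 ± 0.12 (SE, edgeR adjusted p = 6.95e-17) and 2.23 ± 0.15 (SE, edgeR adjusted p = 1.46e-14). ESYT3 and SYTL5 were called lower, at -1.87 and -1.65.

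The third comparison asked whether the members differ between the brains of female and male rats. None of the 10 was called by edgeR's quasi-likelihood test or by DESeq2, where 0.0583% of 20570 genes were called by edgeR. The log2 fold changes, female over male, ran from -0.03 for Syt6 to 0.26 for Syt9. Syt9 was the 1 member with an unadjusted p below 0.05. It averaged 18.5 ± 3.59 CPM in 14 females and 15.5 ± 3.02 CPM in 15 males (SD), with overlapping ranges, and its edgeR adjusted p was 0.287. The normal 95% interval of the difference, from the SE, ran from 0.08 to 0.44 for Syt9, from -0.35 to 0.65 for Syt1 and from -0.09 to 0.07 for Syt3. A difference of 1 on the log2 scale lay outside these intervals for all 10 members.

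Sperm is described last, since the list was drawn up from it. A gene was taken as detected when at least 80% of libraries reached 1 CPM. Of the genes so detected in brain, 42.0% were detected in sheep sperm and 72.7% in rat sperm. None of the 10 members was detected in sheep sperm, and Syt5 and Syt11 were in rat sperm. Every sperm library was below every brain library for 8 members in sheep (not SYT6 or SYT9), where this held for 68.7% of genes detected in brain. In rat it held for 7 members (not Syt1, Syt5 or Syt6) and for 10.2% of genes. These are plain totals, in which the lowest male brain value of Syt1, 4.54 CPM, was that of male 4, rich in Rn45s. In TMM-scaled CPM the lowest male brain values of Syt1, Syt5 and Syt6 were 32.4, 56.5 and 11.2. Their highest sperm values in plain CPM were 5.38, 12.5 and 2.51. The part of the library of male 4 in the rat counts was not tested. With 3 counts as the floor, a library could show 0.0461 to 0.219 CPM in either species, which covers counting error only.

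**Figure D5:**
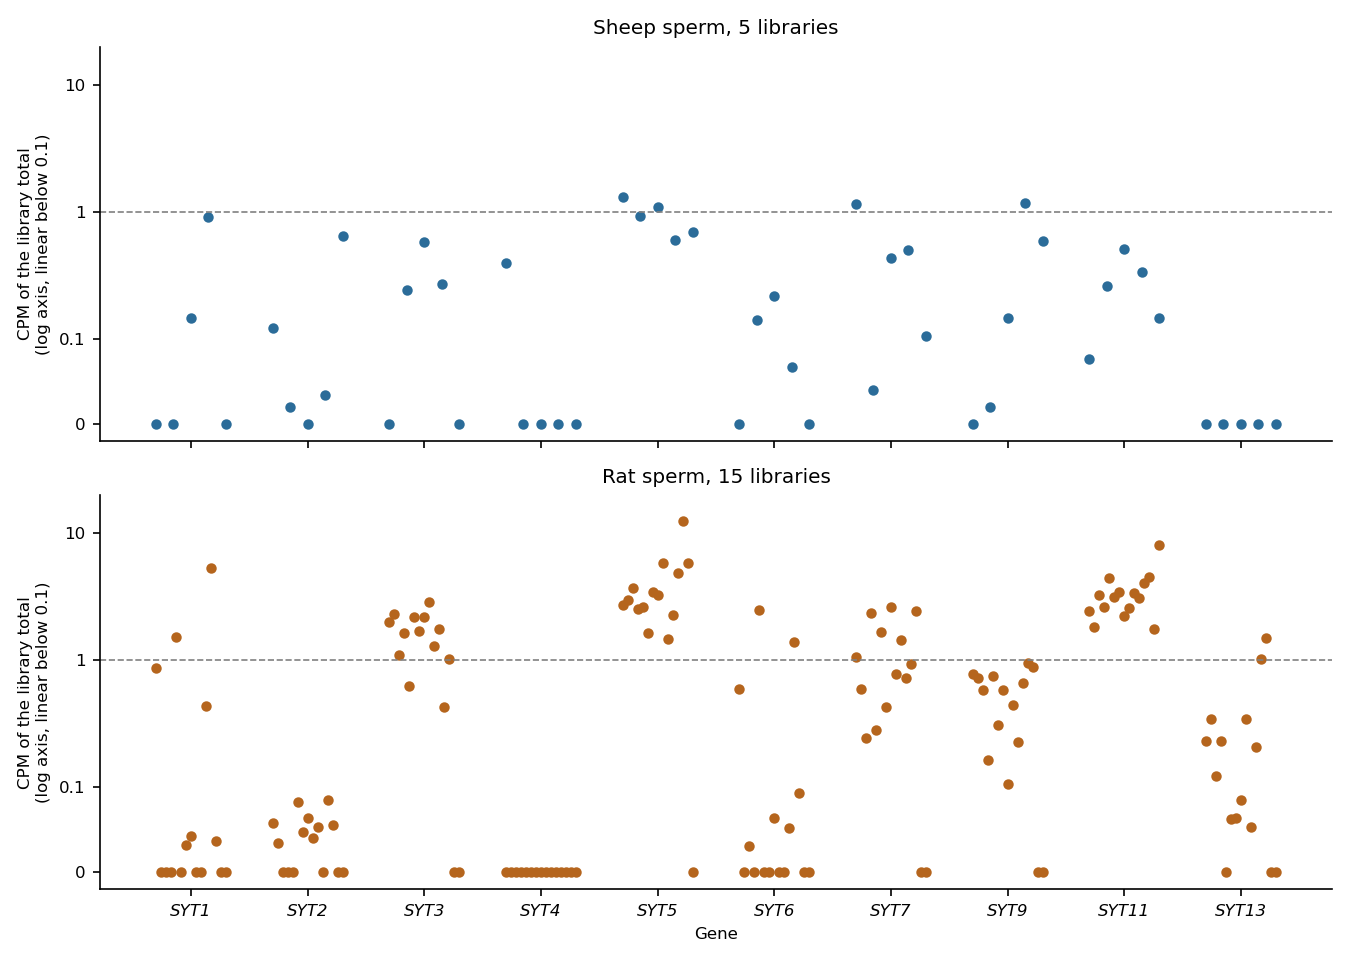
CPM of the plain library total for the 10 members in 5 sheep and 15 rat sperm libraries (log axis, linear below 0.1; dashed line at 1 CPM); each point is a library. SYT13 is at 0 in the sheep panel and SYT4 in the rat panel, and SYT5 and SYT11 are the highest rat medians.

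The complete losses were SYT13 in sheep, with 0 counts in all 5 libraries, and Syt4 in rat, with 0 counts in all 15. SYT13 averaged 140 CPM in sheep brain and Syt4 244 CPM in male rat brain, in CPM of the plain total. A count of 0 in every library was found for 1.67% of the genes detected in sheep brain and for 0.216% of those detected in rat brain. The gene at 0 in every library differed between species, but both genes were far below brain in each. SYT4 averaged 109 CPM in sheep brain and Syt13 159 CPM in male rat brain. Sheep SYT4 had 26 counts in sheep 687 and 0 in the other 4 libraries. Rat Syt13 had counts in 12 of 15 libraries, up to 81 counts in rat 15 and 60 in rat 14, with a median of 0.123 CPM.

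SYT5 had the most counts of the members in sheep sperm, with 86, 46, 15, 18 and 33 counts in sheep 687, 688, 690, 694 and 699, or 0.609 to 1.32 CPM. With TMM-scaled totals it was the 1 member to pass the detection rule in sheep, at a median of 3.49 CPM. In rat sperm Syt5 had a median of 3.01 CPM, from 0 in library 17 to 12.5 CPM, and reached 1 CPM in 14 of 15 libraries. SYT11 had 5 to 13 counts in each sheep library, and 47 to 245 counts in each rat library, with a rat median of 3.15 CPM. Both stood far below brain, where the median was 96.1 CPM for Syt5 and 556 CPM for Syt11 in male rats.

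Syt3 was close to the rule in rat sperm, with a median of 1.66 CPM and 11 of 15 libraries at 1 CPM or more. Libraries 16 and 17 hold 0 counts of it. These libraries list 375 and 358 genes with 1 to 5 counts, library 7 lists 663, and the others 3532 or more. Without libraries 16 and 17, Syt3 passed the rule and 3 of 10 members were detected. Syt7, with a median of 0.787 CPM, and Syt9, with 0.584 CPM, had counts in the same 13 libraries.

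The fast sensors SYT1 and SYT2 had few counts in most sperm libraries. Syt2 never passed 5 counts in rat sperm. In sheep sperm it had 8, 1, 0, 1 and 31 counts in sheep 687, 688, 690, 694 and 699. Sheep SYT1 had 27 counts in sheep 694, 2 in 690 and none in the others, and SYT9 had 35 in sheep 694, 28 in 699 and at most 2 in the others. SYT7 had 75 counts in sheep 687 and at most 15 in the other 4. Sheep SYT3 had 8 to 12 counts in sheep 688, 690 and 694 and 0 in 687 and 699.

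Syt1 and Syt6 in rat sperm were carried by a few libraries, and by the same ones. Syt1 had 314 counts in rat 14, 71 in rat 7, 45 in rat 3 and 25 in rat 13, and at most 2 in the other 11. Syt6 had 116 counts in rat 7, 82 in rat 14 and 31 in rat 3, and at most 5 in the other 12. The sperm and spermatid list (PRM1, PRM2, TNP1, TNP2, ODF1, ODF2, AKAP4, CABYR, SMCP and TSSK6) was highest in the same 3 libraries, at summed CPM of 28358 in rat 14, 27020 in rat 7 and 10870 in rat 3. It was 8162 in rat 10 and at most 3666 in the other 11. Of the lists of other cell types, the neuron and oocyte lists were highest in these 3 libraries too, but not every list was. The epithelial list named below was lowest in rat 14 and rat 7, at summed CPM of 428 and 815. The neuron list summed to 14.2 CPM in rat 14, 12.8 in rat 7 and 4.21 in rat 3, and to at most 3.35 CPM in the other 12. The oocyte list (ZP2, ZP3, GDF9, BMP15 and DAZL) summed to 26.0, 29.4 and 5.47 CPM in the same order, and to at most 1.81 CPM in the other 12. The part of any of these cells in the counts of Syt1 and Syt6 was not tested. In sheep SYT6 had 7, 3 and 2 counts in sheep 688, 690 and 694 and 0 in 687 and 699.

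Markers of other cell types were read in the sperm samples. The neutrophil list (S100A8, S100A9, CSF3R, MMP9 and CXCR2) summed to 1580 to 39922 CPM in sheep sperm and to at most 7.53 CPM in sheep brain. The epithelial list (KRT5, KRT13, KRT8, EPCAM and CDH1) summed to 710 to 17921 CPM in sheep sperm and to 428 to 2463 CPM in rat sperm. The sperm and spermatid list summed to 62.1 to 1563 CPM in sheep sperm and to 333 to 28358 CPM in rat sperm. In rats 4, 5, 6, 8, 9, 11 and 12 it summed to 333 to 1249 CPM. The epithelial list was higher than it in each of these libraries, at 1527 to 2463 CPM. All 10 sperm and spermatid genes reached a mean of 1 CPM in both species. The part of these cells in the counts of the members was not tested.

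Some relatives outside the list were higher in sperm than in brain. SYT8 averaged 7.14 ± 4.51 CPM (SD, n = 5) in sheep sperm against 0.019 CPM in brain, and in rat 10.1 ± 9.43 CPM (SD, n = 15) in sperm and 0.227 CPM in male brain. SYTL1 averaged 6.31 ± 5.35 CPM (SD, n = 5) in sheep sperm, where brain had 0.149 CPM, and 42.8 ± 14.5 CPM (SD, n = 15) in rat sperm, where male brain had 3.95 CPM. ESYT2, lower in sperm than in brain, was still detected in both species, at 5.16 ± 1.88 CPM (SD, n = 5) in sheep and 35.3 ± 9.11 CPM (SD, n = 15) in rat sperm.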

How the data were processed

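Per the labels and the design text of the series, RNA was extracted with TRIzol (sheep) or a Zymo Quick-RNA kit (rat), cleared of DNA with DNase I and sequenced in pairs of 150 bases on a NovaSeq X Plus, from stranded mRNA kits of Kapa (sheep) and Watchmaker (rat). The authors trimmed reads with Trimmomatic v0.39, aligned them with STAR v2.7.5a to ARS-UI_Ramb_v3.0 or GRCr8 and counted them with Rsubread v2.20.0 in R v4.4.2, per the same text. The deposited values are raw counts per gene, 1 column per library. The handling of reads shared by several genes is not given in the sources used here.

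Here edgeR 4.0.16 (R 4.3.3) fitted the counts with its quasi-likelihood model, using TMM factors, the filterByExpr filter, a prior count of 0.125 and Benjamini-Hochberg adjustment over all genes tested. A call required a log2 fold change of 1 or more in size and an adjusted p under 0.05 (for the F test over regions, the adjusted p alone). The SE is the absolute log2 fold change over the square root of F. DESeq2 1.42.0, other scalings, no filter, an animal block and left-out sheep were alternatives, and leaving out doubtful libraries was chosen after seeing the data. The scripts were tested on simulated data with known changes. Replicates are separate animals by label, and no 2 libraries were identical. Same-animal sheep libraries deviated together with a median correlation of 0.21, against -0.06 for other pairs. Ovary and brain of a rat had 0.01. Members, lists and tests were chosen with earlier results of these data known. Beside the members, the text names up to 2 called genes per direction and list with the largest fold change, and the 3 closest regional profiles per member. Symbols of 38599 rat entries matched the GRCr8 annotation, which gave positions, and sheep genes carry none. Genes named in the sperm section beside the members were chosen after their values were seen. Some marker values, lists and a close profile are not reported here.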

Additional observations from a re-analysis of the deposited data

Results flagged for a closer look

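In each of 110 groups of 5 sheep libraries (10 members in 10 regions and in sperm), the gap between the highest or lowest library and the next was set against the range of the group, and 11 groups held a library far from the rest. A rate of about 1 in 20 groups by chance would hold only for normally distributed values. It cannot be used here, as the values were CPM not on a log scale and several sperm libraries had no counts of a member. The 11 groups are therefore a list for a closer look, and whether they exceed chance was not tested. All 11 were high libraries.

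In brain, SYT9 was at 15.1 CPM in motor cortex of sheep 687 (next 2.34), at 30.4 CPM in entorhinal cortex of sheep 694 (next 6.09) and at 4.44 CPM in frontal cortex of sheep 699 (next 2.21). Prefrontal cortex of sheep 688 stood out for SYT2, at 46.0 CPM (next 24.7), and for SYT6, at 10.3 CPM (next 4.69). Visual cortex of sheep 687 stood out for SYT5, at 65.9 CPM (next 34.1), and for SYT7, at 187 CPM (next 114). SYT3 was at 40.5 CPM in entorhinal cortex of sheep 688 (next 24.2).

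In sperm, SYT1 was at 0.914 CPM in sheep 694 (next 0.146), SYT2 at 0.654 CPM in sheep 699 (next 0.123) and SYT4 at 0.399 CPM in sheep 687, with the other 4 at 0.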

How the results depend on the processing

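Each member's regional, ovary and sex result was recomputed under other scalings, without the low-count filter, with DESeq2, with an animal block, without each sheep and without libraries that stood apart, 1310 recomputed values in all. Of these, 1295 kept their side of the call, 3 lost it and 12 gained it. No called result changed sign, but some results without a call did. Over the settings, SYT9 in entorhinal cortex ran from -1.09 to 1.17 and SYT6 in pons from -0.25 to 0.69. The 3 lost are given above, 2 for SYT5 and 1 for SYT4. DESeq2 added calls of SYT9 in posterior parietal cortex (-1.37) and prefrontal cortex (-1.27). The number of called pairs of member and region was 14, and 16 by DESeq2, 15 with the replicate block, 17 without the 4 libraries that stood apart and 16 without these and the pons library of sheep 687. It was 13 to 15 with 1 sheep left out. The F test kept 10 members under each setting except without sheep 694, which left 9. The 9 calls in ovary and the 0 calls between the sexes held under every alternative run, the block for ovary included. The block changed no other call than that of SYT6 in motor cortex.

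With TMM-scaled totals, 1 member was detected in sheep sperm in place of 0, and leaving out each sheep gave 0 to 0. The pons excess of the SYT2 to SYT1 ratio was 2.86 to 3.71 with 1 sheep left out and 3.64 without the 5 libraries. Over all genes, the calls in ovary rose from 11832 to 18799 without the low-count filter. Calls between the sexes rose from 12 to 30 with DESeq2, 19 without the filter and 22 without rat brain libraries 1 and 4. The cause was not tested. Calls in entorhinal cortex fell from 474 to 219 without the 4 libraries and 218 without the 5. Left-out sheep lowered the counts of 7 regions by over 1.5 times: entorhinal cortex from 474 to 310 (without 694) and 249 (without 699), frontal cortex from 585 to 387, hippocampus from 976 to 625, motor cortex from 347 to 229, posterior parietal cortex from 562 to 322, prefrontal cortex from 520 to 304 and visual cortex from 448 to 281. Sperm values of under 3 counts are at the floor and carry no order between libraries.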

Other observations

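Across 29 rat brains, which share tissue and preparation, Syt1 and Snap25, its partner in fusion, ran in opposite directions. The Pearson correlation of their levels was -0.81, and -0.81 without libraries 1 and 4. Over all 29 brains the other members were negative with Snap25 too, from -0.82 for Syt11 to -0.09 for Syt5. Syt9, Syt6, Syt13 and Syt7 were at -0.69 to -0.63. Without libraries 1 and 4 the sign was not shared, as Syt5 was at 0.09 and Syt3 at -0.05, with Syt11 at -0.81. With Map2 all members were positive over the 29 brains, from 0.02 for Syt2 to 0.75 for Syt11, and Syt1 was at 0.69. Without libraries 1 and 4, Syt2 was at -0.09 and Syt3 at -0.02 with Map2. The others stayed positive, and Syt1 was at 0.61. The lowest Syt1 values were 32.4 CPM in male 4, 32.6 CPM in female 2, 75.1 CPM in male 3 and 76.2 CPM in female 1, and the highest was 392 CPM in female 27. Of these 4 low libraries, 2, of male 4 and female 1, are those rich in ribosomal RNA.

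Syt2 rose with Gabra6, the granule cell marker of cerebellum, at a Pearson correlation of 0.80 over the 29 rat brains and 0.82 without libraries 1 and 4. For Syt5 the correlation was -0.49, for Syt9 0.33 and for Syt4 0.24. In sheep, SYT2, SYT9 and SYT4 were called higher in cerebellum and SYT5 lower. The part of the share of cerebellum in these whole-brain samples was not tested.

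Rat Syt16, no member of the list, was uneven in sperm, at a mean of 31.2 ± 65.1 CPM (SD, n = 15) with 7 of 15 libraries at 1 CPM or more and a highest value of 189 CPM, against 41.1 ± 12.3 CPM in male brain. Rat Sytl3 was at 20.7 ± 9.35 CPM (SD, n = 15) in sperm and 0.463 CPM in male brain.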
